A study of Mus musculus with 8 samples.

Results

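The mitochondrial carriers of the SLC25 family were described here in mouse extensor digitorum longus (EDL), a fast muscle of the lower leg, after loss of the transcriptional coactivators p300 and CBP. Members were chosen with earlier results of these data known, though by a rule that uses no measured values. They were all array genes whose RefSeq symbol is Slc25a followed by a number. This gave 47 genes on 56 probes, out of 20145 named genes with a probe. Of these, 34 gave a signal well above background on 4 or more of the 8 arrays and entered the test, as did 12739 genes in all. The series holds 4 PCKO mice, in which p300 (Ep300) and CBP (Crebbp) can be deleted in skeletal muscle only and by an inducible system, and 4 wild-type (WT) mice. All were male C57BL/6. Mice aged 13 to 15 weeks at the start received tamoxifen by gavage on 5 days, and EDL was collected on day 1 after the final gavage, when food had been withheld for 4 h. The treatment text stands with every sample but is worded for PCKO mice, so whether WT mice had tamoxifen is not known from it. The promoter that drives the recombinase is not named, and the genotype entry of the PCKO mice names CBP alone.

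SLC25 proteins form the largest family of mitochondrial transporters. Most sit in the inner membrane, which is otherwise closed to nucleotides, phosphate, amino acids and cofactors, and exchange these between the matrix and the cytosol. In muscle, the adenine nucleotide and phosphate carriers feed and empty the ATP synthase, and the aspartate/glutamate and oxoglutarate carriers move reducing equivalents inwards in the malate-aspartate shuttle.

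Each value is a log2 intensity relative to the 75th percentile of its own array, so that 0 is the signal of that percentile. Differences are PCKO minus WT, each with a standard error (SE) from a limma fit over all genes tested, and a gene is called where the Benjamini-Hochberg adjusted p is under 0.05. The groups stood apart on the whole array, with a correlation between arrays of 0.989 to 0.992 within a group and 0.911 to 0.925 between groups. The targeted genes were both lower in PCKO muscle. Ep300 was -1.41, -1.10, -1.28 and -1.40 in PCKO mice, against -0.05, 0.12, 0.35 and 0.15 in WT mice. Its difference was -1.44 ± 0.11 (SE, adjusted p = 5.5e-06). Crebbp differed by -0.70 ± 0.11 (adjusted p = 3.8e-04), but by -0.02 (adjusted p = 0.96) when each array was centred on its 7 detected spike-in probes. The percentile itself lay 2.80 ± 0.33 log2 units under the spike-ins in PCKO mice and 3.48 ± 0.30 under them in WT mice (SD, n = 4 each). A two-sided exact permutation test gave p = 0.0286 for this gap, as low as the design can go. Centring on the spike-ins therefore raises every difference by 0.68. A direction given below for a named gene that turns with it is named with its value. Second probes and means of probes are given at the percentile scaling only. All 6 skeletal muscle markers (Acta1, Myh4, Myh1, Ckm, Pvalb, Tnnt3) were well above background on all 8 arrays and fell in PCKO muscle, the log2 of their summed intensities, relative to the percentile, being 10.1 to 10.4 in PCKO mice and 12.3 to 12.7 in WT mice. The markers that passed the detection filter for endothelium (5 of 5), macrophages (4 of 5), fibroblasts (5 of 5) and smooth muscle (4 of 4) were also all called lower. Under spike-in centring only 4 muscle, 1 macrophage and 3 fibroblast markers were still called lower. Myh4 (0.02), Pecam1 (0.27), Cdh5 (0.09), Mrc1 (0.23) and Dcn (0.04) took the opposite sign there. Myh4 was -0.07 under quantile normalization (limma, adjusted p = 0.57). Of the tested markers of other cell types, 2 of 3 for satellite cells, 2 of 4 for Schwann cells and 1 of 4 for adipocytes were called lower. Among these, the Schwann cell marker Sox10 turned to 0.02 under spike-in centring. The erythroid markers summed to 9.72 to 10.6 in PCKO mice and 9.32 to 11.2 in WT mice. The tissue is bulk muscle, in which fewer cells of a type and less RNA per cell cannot be told apart, and the part of these shifts in the carrier results was not tested.

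Of the 34 tested carriers, 13 fell (38.2%), 10 rose (29.4%) and 11 did not pass the threshold. Over all genes tested the calls were 32.7% lower, 38.3% higher and 71.0% in either direction, so the carriers' 67.6% is near the background and is not particular to the family. The median difference was -0.02 over the carriers and 0.06 over all genes. The groups did not overlap for 12 carriers that were lower and 9 that were higher, or 61.8% of those tested, against 29.7%, 36.1% and 65.8% of all genes for lower, higher and either. Differences past the threshold reached 2-fold in 8 carriers, 4 lower and 4 higher, which is 23.5% against 25.6% of all genes (13.9% lower, 11.6% higher). Those lower were Slc25a33, Slc25a34, Slc25a25 and Slc25a12, and those higher were Slc25a13, Slc25a14, Slc25a40 and Slc25a17. Under spike-in centring 3 carriers were called lower (Slc25a33, Slc25a34 and Slc25a25) and 17 higher, against 9.45% and 54.0% of all genes (63.5% in either direction). The spike-in level is set per array, so its error is shared by all genes. Calls and adjusted p-values under this centring are therefore not separate evidence for each gene. Under quantile normalization the carriers gave 10 lower and 12 higher calls, against 29.0% and 43.3% of all genes (72.2% in either direction).

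**Figure D1:**
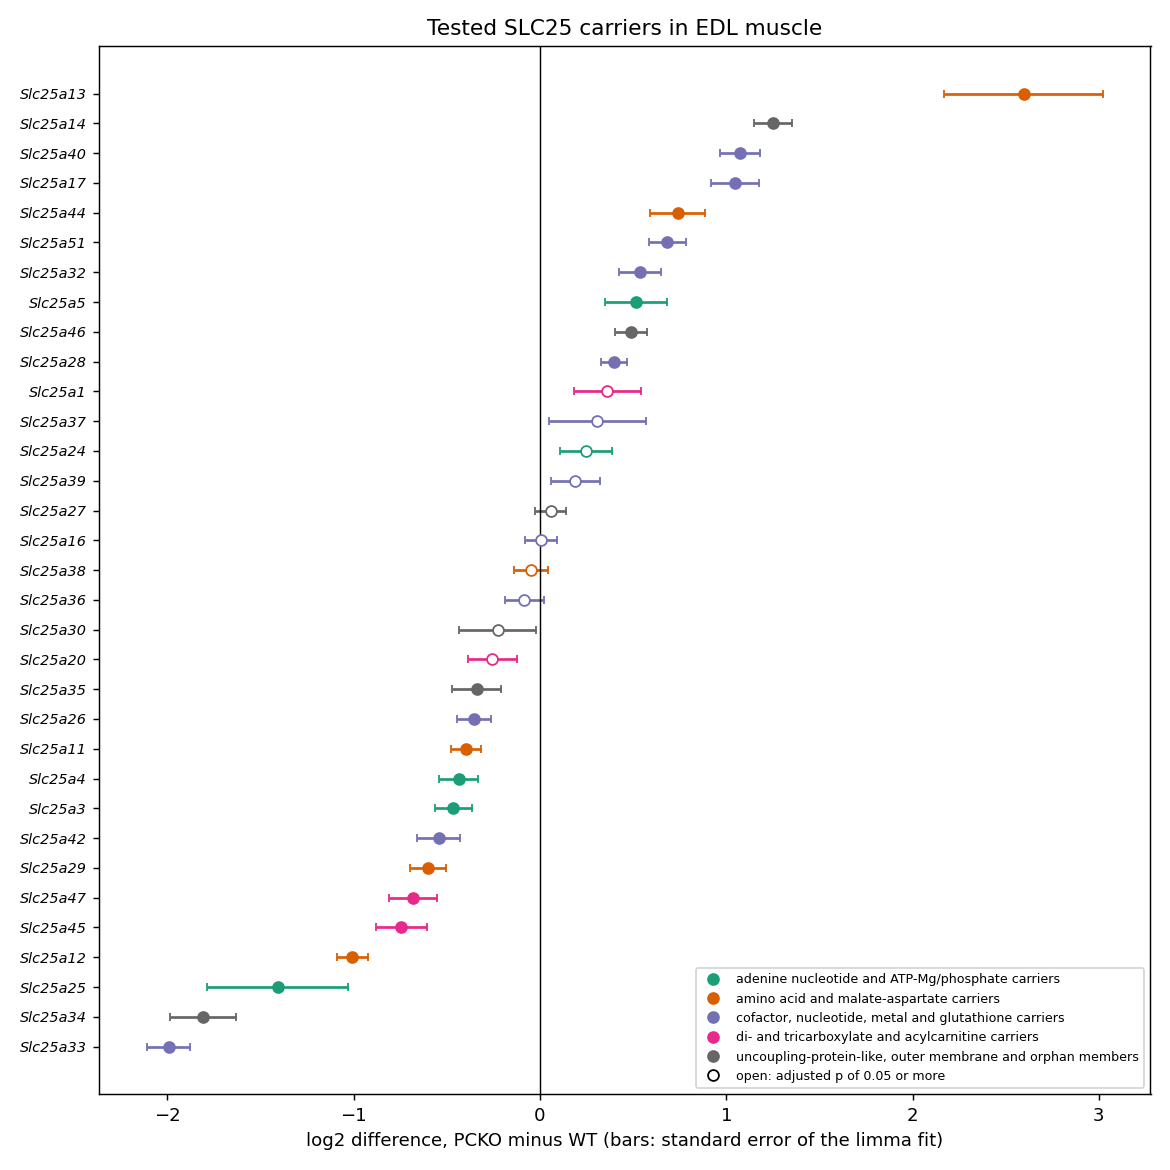
Log2 difference between PCKO and WT mice (horizontal axis, bars: SE of the limma fit) of 33 tested SLC25 carriers, sorted by difference and coloured by transported substrate, with open circles for the 10 shown that were not past the threshold. Values run from -1.99 for Slc25a33 to 2.60 for Slc25a13, and at this scaling every substrate class but that of the di- and tricarboxylate carriers holds both lower and higher calls.

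The adenine nucleotide and phosphate carriers split. Of 9 members of this class 5 were tested, of which 3 fell and 1 rose. Their median was -0.44, which became 0.23 under quantile normalization and 0.25 under spike-in centring. Slc25a4, the adenine nucleotide translocator of heart and skeletal muscle, was 9.66, 9.44, 9.54 and 9.65 in PCKO mice, against 10.25, 9.89, 10.05 and 9.84 in WT mice. It was thus among the brightest signals on every array, and no PCKO mouse reached the lowest WT mouse. The difference was -0.44 ± 0.11 (adjusted p = 0.0056), but its direction turned to 0.23 under quantile normalization (adjusted p = 0.012), 0.14 in the deposited log2 values and 0.25 under spike-in centring. Slc25a3, which brings phosphate into the matrix, was 6.59, 6.30, 6.46 and 6.62 in PCKO mice, against 7.15, 6.86, 6.91 and 6.92 in WT mice. Its difference of -0.46 ± 0.10 (adjusted p = 0.0029) was -0.07 under quantile normalization (adjusted p = 0.50) and 0.22 under spike-in centring, where its direction turned. The other probe of Slc25a3 gave -0.81. Slc25a5, the translocator isoform typical of dividing cells, was 3.06, 2.71, 2.74 and 3.04 in PCKO mice, against 2.41, 2.79, 2.27 and 2.03 in WT mice. It rose by 0.51 ± 0.17 (adjusted p = 0.021), although WT replicate 2 lay within the PCKO range. The call was lost when PCKO replicate 1, PCKO replicate 4 or WT replicate 3 was left out, with an adjusted p of up to 0.057.

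Slc25a25 is a calcium-regulated carrier that exchanges ATP-Mg for phosphate and so sets the size of the matrix nucleotide pool. Its values were 3.67, 3.27, 3.78 and 3.31 in PCKO mice, against 4.06, 5.29, 4.39 and 5.94 in WT mice. WT mice were widely spread, with replicates 2 and 4 high, yet all lay above every PCKO mouse. The gene fell by 1.41 ± 0.38 on the log2 scale (adjusted p = 0.0090), and its other probe gave -1.55. Its relative Slc25a24 was 1.24, 1.75, 1.33 and 1.22 in PCKO mice, against 0.96, 1.04, 1.23 and 1.32 in WT mice, a difference of 0.25 ± 0.14 that did not pass (adjusted p = 0.14). Slc25a23, Slc25a41, Slc25a31 and Slc25a54 were not well above background on any array.

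The aspartate/glutamate carriers moved in opposite directions. Slc25a12 (aralar) and Slc25a13 (citrin) carry out the same exchange, aspartate out of the matrix for glutamate in, and aralar is the usual form in muscle and citrin in liver. Slc25a12 was 5.96, 5.70, 5.74 and 5.91 in PCKO mice, against 6.87, 6.88, 6.73 and 6.85 in WT mice. Both groups were narrow and lay far apart, and the gene fell by 1.01 ± 0.083 on the log2 scale (adjusted p = 9.6e-06). The size depended on the scaling, with -0.67 under quantile normalization and -0.32 (adjusted p = 0.35) under spike-in centring. Slc25a13 was -0.19, 0.02, -0.45 and -0.21 in PCKO mice, against -2.45, -2.04, -4.25 and -2.47 in WT mice. WT replicate 3 was far below the other WT mice and was the only array on which the probe was not well above background. The gene rose by 2.60 ± 0.42 (adjusted p = 6.0e-04), or 6.04-fold, which normexp background correction, a method that compresses dim signals, reduced to 0.997. In the deposited log2 values, the difference was 1.53.

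Sequence upstream of the start was set beside both aspartate/glutamate carriers, since they moved in opposite directions, and beside Slc25a33 and Slc25a34, the members that fell most. Each is the 250 bases before the RefSeq gene start (GRCm38.p6), all on the minus strand, 5′ to 3′. They lie at chr2:71367756-71368005 (Slc25a12), chr6:6217174-6217423 (Slc25a13), chr4:149774268-149774517 (Slc25a33) and chr4:141623835-141624084 (Slc25a34). Capitals mark every match, on either strand, to any of 7 motifs. These were a CRE, the cyclic AMP response element, with the letters TGACGTCA, an ERR element, bound by the estrogen-related receptors, with the letters TCAAGGTCA, and an NRF1 site, searched as its palindromic core. The E-box searched is the form common in muscle promoters and reads CAGCTG on both strands. The GC box, bound by the Sp family of factors, was searched as GGGCGG in either direction. The CCAAT box is spelt by its own name, and the last of the motifs, the TATA box of some core promoters, was searched as TATAAA in either direction.
Slc25a12: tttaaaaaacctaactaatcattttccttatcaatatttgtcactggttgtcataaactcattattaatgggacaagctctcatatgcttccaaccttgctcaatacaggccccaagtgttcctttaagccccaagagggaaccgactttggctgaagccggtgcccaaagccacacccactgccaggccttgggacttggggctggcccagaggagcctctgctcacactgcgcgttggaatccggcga
Slc25a13: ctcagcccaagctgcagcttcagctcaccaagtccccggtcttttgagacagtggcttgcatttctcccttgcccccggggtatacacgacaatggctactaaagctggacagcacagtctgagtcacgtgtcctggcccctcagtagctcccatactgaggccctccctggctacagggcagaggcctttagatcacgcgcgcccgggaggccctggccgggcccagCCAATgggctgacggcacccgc
Slc25a33: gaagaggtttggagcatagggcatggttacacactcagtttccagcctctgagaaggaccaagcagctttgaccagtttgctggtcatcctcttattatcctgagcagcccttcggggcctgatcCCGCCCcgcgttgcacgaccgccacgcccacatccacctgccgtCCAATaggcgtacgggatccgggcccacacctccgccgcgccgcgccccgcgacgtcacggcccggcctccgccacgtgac
Slc25a34: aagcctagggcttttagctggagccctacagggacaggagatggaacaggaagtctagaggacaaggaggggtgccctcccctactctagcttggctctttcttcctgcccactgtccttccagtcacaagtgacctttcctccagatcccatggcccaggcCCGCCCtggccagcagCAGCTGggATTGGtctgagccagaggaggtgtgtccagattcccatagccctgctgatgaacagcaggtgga
The capitals do not overlap one another. The window of Slc25a12 held none of the 7 motifs and that of Slc25a13 a CCAAT box. A GC box and a CCAAT box were found before Slc25a33, and an E-box, a GC box and a CCAAT box before Slc25a34. CpG dinucleotides numbered 6 before Slc25a12, 11 before Slc25a13, 23 before Slc25a33 and 1 before Slc25a34, against a median of 6 over all windows. Of all 32851 such windows, 33.8% held a CCAAT box, 32.7% a GC box, 13.0% an E-box, 12.4% a TATA box, 1.55% a CRE, 0.782% an NRF1 site and 0.387% an ERR element. RefSeq windows were at hand for 36 of the 47 carriers, 46 windows in all. A CCAAT box stood in 10 of 13 windows of carriers that fell (11 genes), against 3 of 8 windows of carriers that rose (6 genes), and a GC box in 9 of 13 against 6 of 8. These are matches of letters only, several windows can belong to 1 gene, and no test was made.

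Of the whole class of 11 amino acid and malate-aspartate carriers, 6 were tested, Slc25a12 and Slc25a13 included. Of these, 3 fell (Slc25a12, Slc25a29, Slc25a11) and 2 rose (Slc25a13, Slc25a44). The class median of -0.22 became 0.04 under quantile normalization and 0.46 under spike-in centring. Slc25a29, a carrier of basic amino acids, was 0.96, 0.84, 0.92 and 1.02 in PCKO mice, against 1.73, 1.62, 1.36 and 1.43 in WT mice. The groups did not overlap and the gene fell by 0.60 ± 0.098 (log2, adjusted p = 5.8e-04), with 0.08 (adjusted p = 0.83) under spike-in centring, the opposite sign. Slc25a11, the oxoglutarate/malate carrier of the malate-aspartate shuttle, was 7.66, 7.61, 7.69 and 7.83 in PCKO mice, against 8.15, 8.17, 7.97 and 8.08 in WT mice. It was lower in every PCKO mouse than in any WT mouse, by -0.40 ± 0.079 (adjusted p = 0.0019), but its direction turned under quantile normalization (0.07) and spike-in centring (0.29). Slc25a44, which takes branched-chain amino acids into mitochondria, was -0.98, -1.23, -1.001 and -0.84 in PCKO mice, against -1.54, -2.05, -1.48 and -1.93 in WT mice. It rose by 0.74 ± 0.15 (adjusted p = 0.0020), and 0.60 by its other probe, while normexp correction gave 0.19 (adjusted p = 0.20). Slc25a38, which supplies glycine for haem synthesis, differed by -0.05 ± 0.091 (adjusted p = 0.66) and took the other sign under quantile normalization, normexp correction and spike-in centring.

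**Figure D2:**
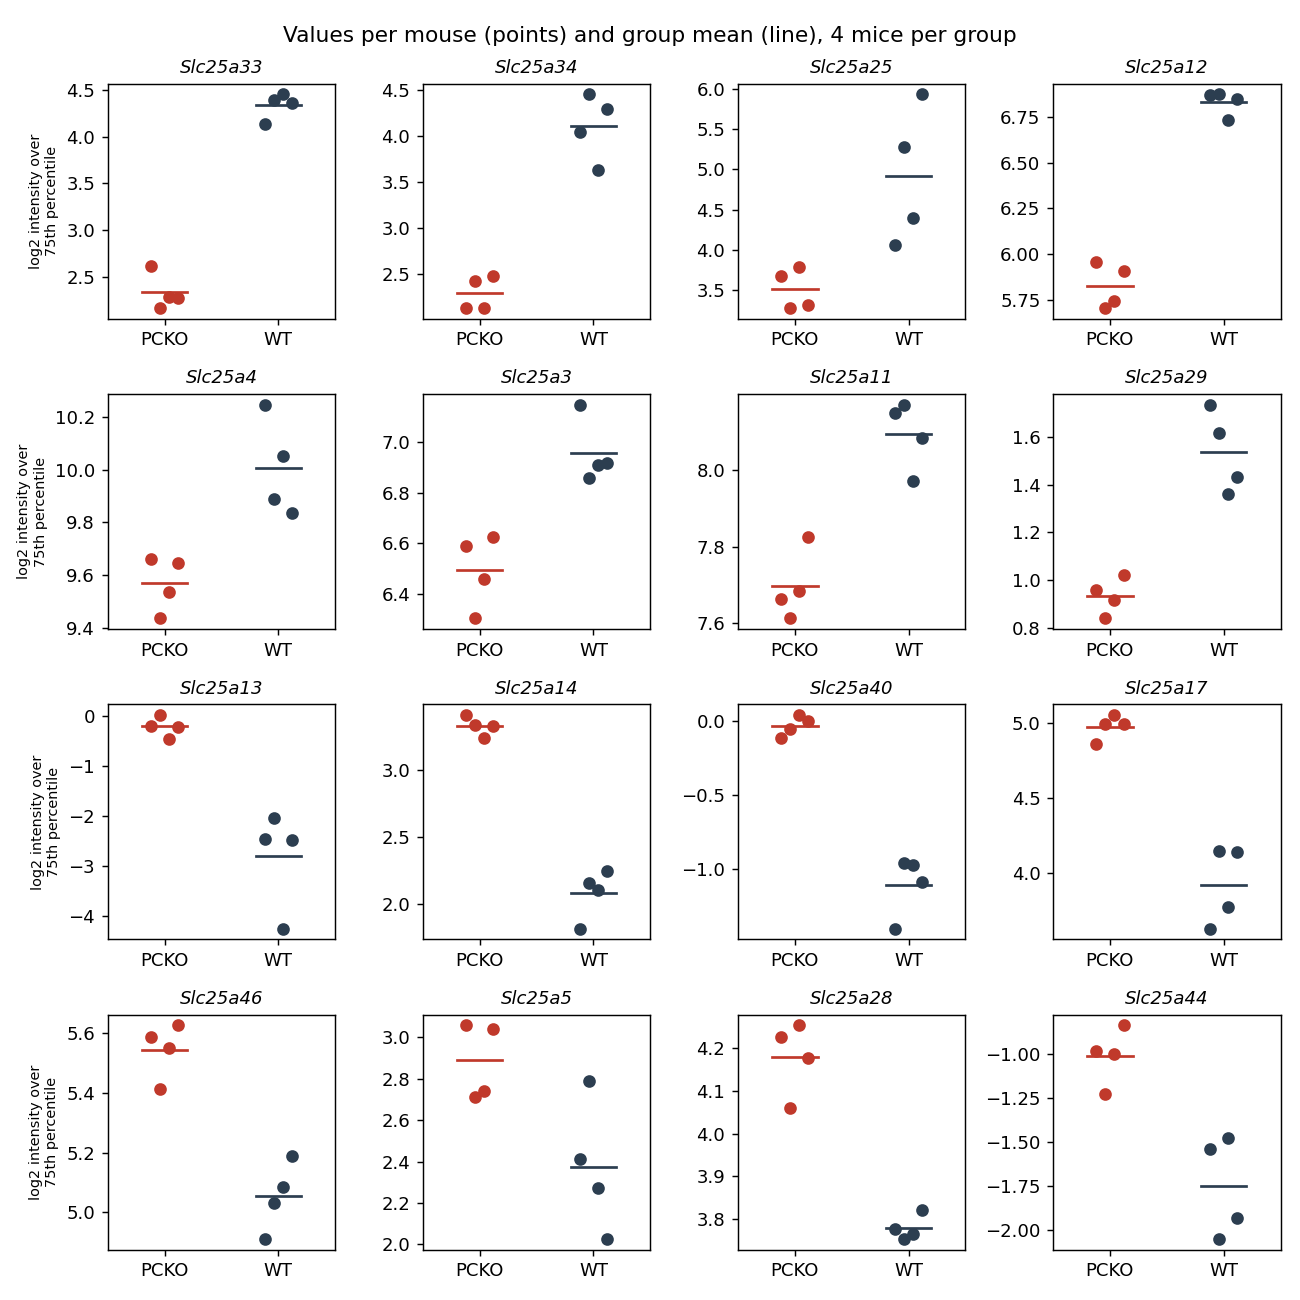
Log2 intensity over the 75th percentile (vertical axes, each on its own scale) of 16 carriers in the 4 PCKO and 4 WT mice, with points for mice and lines for group means. The top 2 lines of panels hold carriers lower in PCKO mice, such as Slc25a33 at 2.17 to 2.62 in PCKO and 4.13 to 4.45 in WT mice, the lower panels those higher, and Slc25a5 is the panel whose groups overlap.

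The cofactor, nucleotide, metal and glutathione carriers were all tested, and of these 13 members 3 fell, 5 rose and 5 did not pass, with a median of 0.19 (0.29 under quantile normalization, 0.87 under spike-in centring). Slc25a33, a pyrimidine nucleotide carrier that serves mitochondrial DNA and RNA synthesis, fell most of all carriers tested in this fit. It was 2.62, 2.17, 2.28 and 2.28 in PCKO mice, against 4.13, 4.39, 4.45 and 4.36 in WT mice. The groups were narrow and did not overlap, at a difference of -1.99 ± 0.12 (adjusted p = 1.2e-06), a level 3.98-fold lower in PCKO muscle. The other probe gave -2.24, and the direction held under quantile normalization (-1.94), normexp correction (-1.60), the deposited values (-1.72) and spike-in centring (-1.31, adjusted p = 6.1e-05). Its relative Slc25a36, which also carries pyrimidine nucleotides, was 1.35, 1.07, 1.34 and 1.16 in PCKO mice, against 1.42, 1.27, 1.11 and 1.47 in WT mice. These ranges overlap, and the difference of -0.08 ± 0.11 did not pass (adjusted p = 0.50) and was 0.60 under spike-in centring (adjusted p = 0.074).

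Of the glutathione carriers, Slc25a40 rose and Slc25a39 did not pass. Slc25a40 was -0.12, -0.05, 0.04 and 0.00 in PCKO mice, against -1.40, -0.96, -0.98 and -1.09 in WT mice. All PCKO mice lay near 0 and all WT mice near -1, a difference of 1.07 ± 0.11 (adjusted p = 3.2e-05) that normexp correction reduced to 0.62. Slc25a39 was -1.62, -1.32, -1.35 and -0.97 in PCKO mice, against -1.41, -1.61, -1.48 and -1.51 in WT mice, with 0.19 ± 0.13 (adjusted p = 0.22) and the opposite sign, -0.10, after normexp correction. The iron carriers, or mitoferrins, differed in their spread. Slc25a28 (mitoferrin 2) was 4.22, 4.06, 4.25 and 4.18 in PCKO mice, against 3.78, 3.75, 3.77 and 3.82 in WT mice, and rose by 0.40 ± 0.070 (adjusted p = 9.0e-04) with no overlap. Slc25a37 (mitoferrin 1, the erythroid form) was 4.45, 5.00, 4.58 and 4.55 in PCKO mice, against 4.22, 4.11, 3.88 and 5.13 in WT mice. WT replicate 4 was the highest of all 8, and the difference of 0.31 ± 0.26 (adjusted p = 0.31) became 0.57 (adjusted p = 0.010) without that mouse. Its other probe gave -0.19.

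Carriers of coenzymes rose and fell. Slc25a17, the peroxisomal member, which carries coenzyme A, FAD and NAD, was 4.86, 4.99, 5.05 and 4.99 in PCKO mice, against 3.63, 4.15, 3.77 and 4.14 in WT mice. It rose by 1.05 ± 0.13 (adjusted p = 1.1e-04) with a wide gap between the groups. Slc25a32, linked to folate and FAD, was 1.505, 1.45, 1.39 and 1.39 in PCKO mice, against 0.84, 1.20, 0.88 and 0.67 in WT mice, and rose by 0.54 ± 0.11 (adjusted p = 0.0023). Slc25a42, which imports coenzyme A, was 3.58, 3.16, 3.56 and 3.66 in PCKO mice, against 4.03, 4.12, 4.00 and 3.99 in WT mice. It was lower in all PCKO mice, by -0.54 ± 0.11 (adjusted p = 0.0024), with -0.28 (adjusted p = 0.10) after normexp correction and a turned sign of 0.14 under spike-in centring. Slc25a26, which imports S-adenosylmethionine, was 3.01, 2.94, 2.94 and 3.07 in PCKO mice, against 3.24, 3.56, 3.33 and 3.25 in WT mice. Its difference was -0.35 ± 0.090 (adjusted p = 0.0068), with -0.44 by its other probe, and turned to 0.33 under spike-in centring. Slc25a16 did not pass, at 0.00 ± 0.087 (-0.02 in the deposited values). It was 0.61, 0.49, 0.75 and 0.70 in PCKO mice, against 0.59, 0.75, 0.68 and 0.52 in WT mice, with full overlap.

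Slc25a51, the NAD carrier, could not be given a direction, since its probes disagree. The brighter probe was 4.46, 4.33, 4.38 and 4.26 in PCKO mice, against 3.50, 3.80, 3.55 and 3.84 in WT mice, a difference of 0.68 ± 0.099 (adjusted p = 2.8e-04). The other was 3.05, 3.11, 3.16 and 2.93 in PCKO mice, against 3.78, 3.89, 3.81 and 3.89 in WT mice, a difference of -0.78. In both cases the groups did not overlap, and the mean of the probes differed by -0.05. The count of 10 higher carriers includes the brighter probe.

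The uncoupling-protein-like, outer membrane and orphan members numbered 8, of which 6 were tested, 2 fell and 2 rose, with a median of -0.09 (0.60 under spike-in centring). Slc25a34, whose substrate is not settled, was 2.13, 2.42, 2.13 and 2.48 in PCKO mice, against 4.04, 4.45, 3.63 and 4.29 in WT mice. It fell by 1.81 ± 0.18 on the log2 scale (adjusted p = 2.8e-05), or 3.51-fold, and by 1.13 under spike-in centring. Its relative Slc25a35 differed by -0.34 ± 0.13 (adjusted p = 0.045), a call lost when PCKO replicate 2, 3 or 4 or WT replicate 1, 2 or 3 was left out, and the sign turned to 0.34 under spike-in centring. Slc25a14, an uncoupling-protein-like member, was 3.41, 3.34, 3.24 and 3.33 in PCKO mice, against 1.81, 2.16, 2.11 and 2.24 in WT mice. Every PCKO mouse lay above every WT mouse, and the gene rose by 1.25 ± 0.10 (adjusted p = 8.9e-06). Its relative Slc25a30 was -0.45, -0.84, -0.59 and -1.41 in PCKO mice, against -0.71, -0.32, -0.72 and -0.63 in WT mice, and did not pass (-0.23 ± 0.20, adjusted p = 0.34; 0.46 under spike-in centring). Slc25a27, also uncoupling-protein-like, differed by 0.06 ± 0.084 (-0.02 in the deposited values). Slc25a46, which acts in the outer membrane on mitochondrial shape, was 5.59, 5.41, 5.55 and 5.62 in PCKO mice, against 4.91, 5.03, 5.09 and 5.19 in WT mice. It rose by 0.49 ± 0.086 (adjusted p = 8.8e-04) by the brighter probe and by 1.28 by the other.

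Of the 6 di- and tricarboxylate and acylcarnitine carriers, 4 were tested, of which 2 fell and 2 did not pass, with a median of -0.47 (0.21 under spike-in centring). Slc25a45 was -2.58, -2.69, -2.53 and -3.00 in PCKO mice, against -1.99, -1.73, -1.89 and -2.22 in WT mice, and fell by 0.74 ± 0.14 (log2, adjusted p = 0.0012). Slc25a47 was -0.61, -0.50, -0.30 and -0.47 in PCKO mice, against 0.12, 0.24, 0.52 and -0.05 in WT mice, and fell by 0.68 ± 0.13 (log2, adjusted p = 0.0013). Neither overlapped between the groups, and under spike-in centring neither passed (-0.06 with adjusted p = 0.87 for Slc25a45, and an adjusted p of 0.999 for Slc25a47). Slc25a20, the carnitine/acylcarnitine carrier of fatty acid oxidation, was 1.79, 2.01, 1.49 and 1.77 in PCKO mice, against 1.92, 2.14, 1.82 and 2.21 in WT mice, with -0.26 ± 0.13 (adjusted p = 0.11; 0.43 under spike-in centring). Slc25a1, the citrate carrier, differed by 0.36 ± 0.18 (adjusted p = 0.10). Each of these 2 passed in 1 limma fit that left out a mouse (adjusted p = 0.048 for Slc25a20 and 0.038 for Slc25a1). The oxodicarboxylate carrier Slc25a21 was not tested, being well above background on 3 PCKO arrays and 0 WT arrays. Its values were -3.12, -3.48 and -2.78 in PCKO mice, the fourth spot being left out as non-uniform, against -5.51, -6.05, -5.56 and -5.62 in WT mice, without overlap.

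Carriers were tested by their signal on the arrays, so the tested and untested ones differ in level by construction. Mean WT values of the tested carriers ran from -2.80 to 10.01, and 26 of the 34 lay above the 75th percentile of their arrays. The remaining 13 carriers were dim. Besides Slc25a21, 9 were not well above background on any array (Slc25a10, Slc25a18, Slc25a23, Slc25a31, Slc25a41, Slc25a43, Slc25a48, Slc25a53, Slc25a54). The ornithine carriers Slc25a15 and Slc25a2 were so on 1 and 2 WT arrays, and the glutamate carrier Slc25a22 on 3 WT arrays, with 0 PCKO arrays for each. Slc25a22 was -4.16, -4.83, -4.61 and -4.97 in PCKO mice, against -3.40, -3.83, -4.01 and -2.49 in WT mice. Slc25a2 was -5.09, -4.56, -4.51 and -5.22 in PCKO mice, against -3.66, -3.85, -2.85 and -3.85 in WT mice. Both were lower in PCKO mice without overlap, opposite to Slc25a21, and were not tested. As probes differ in brightness, these levels give no order between genes.

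Ratios within an array do not depend on how arrays are scaled to one another by a constant, so 8 pairs of related carriers were compared as a log2 ratio in each mouse. The absolute ratio depends on the probes, and only its difference between the groups is read. In 7 pairs the groups did not overlap (p = 0.0286 in a two-sided exact permutation test, which is the lowest value it can give, or 0.0327 adjusted over the 8 pairs). Ratios of unrelated genes were not examined, and 65.8% of all single genes tested did not overlap either. The count of 7 is therefore not read as particular to related carriers. Slc25a13 over Slc25a12 was -6.03 ± 0.24 in PCKO mice and -9.64 ± 0.92 in WT mice (SD, n = 4 each), a difference of 3.60 that was 1.76 after normexp correction. Slc25a5 over Slc25a4 was -6.68 ± 0.094 in PCKO mice and -7.63 ± 0.36 in WT mice, a difference of 0.95. Quantile normalization, which acts on bright and dim probes differently, left 0.30 of it (exact permutation test, adjusted p = 0.13), and leaving out any PCKO mouse ended the call (exact permutation test, adjusted p = 0.065). The ratio of Slc25a36 to Slc25a33 was higher in PCKO mice by 1.91 and that of Slc25a40 to Slc25a39 by 0.89. Slc25a25 over Slc25a24 was 2.12 ± 0.43 in PCKO mice and 3.78 ± 0.77 in WT mice, a difference of -1.66, with an adjusted p of 0.065 by the exact permutation test without PCKO replicate 2. Slc25a30 over Slc25a14 differed by -1.48 and Slc25a42 over Slc25a16 by -0.55 (-0.34 after normexp correction, exact permutation test, adjusted p = 0.065). The mitoferrin ratio, Slc25a37 over Slc25a28, was 0.47 ± 0.32 in PCKO mice and 0.56 ± 0.52 in WT mice, a difference of -0.09 (exact permutation test, p = 0.74). It became 0.16 without WT replicate 4.

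**Figure D3:**
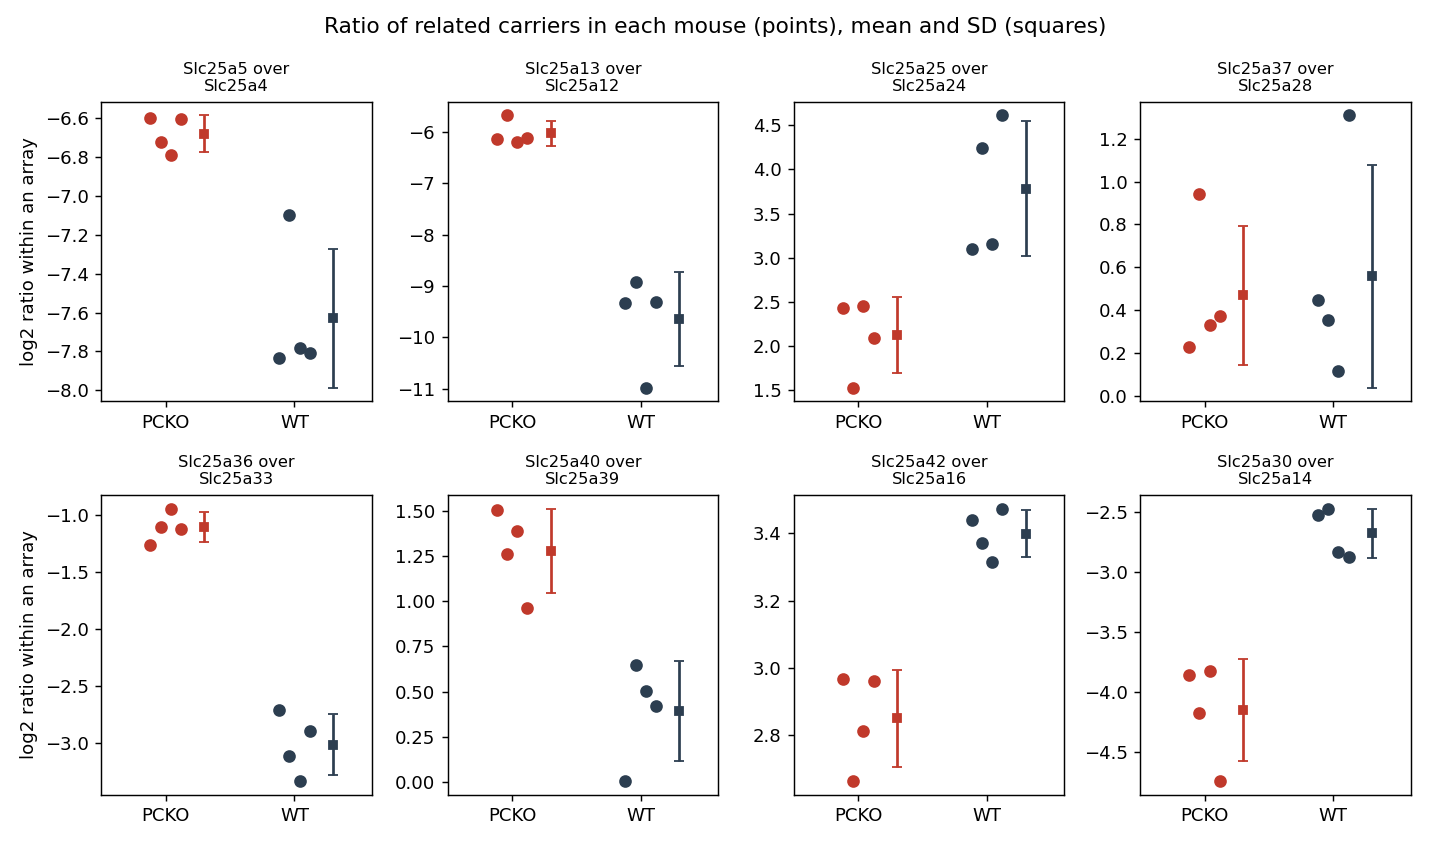
Log2 ratio of 2 related carriers within each array (vertical axes, each on its own scale), with points for the 4 PCKO and 4 WT mice and squares with bars for mean and SD. The groups are apart in 7 of the 8 panels, most for Slc25a13 over Slc25a12 (difference 3.60), and overlap for Slc25a37 over Slc25a28 (difference -0.09).

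**Figure D4:**
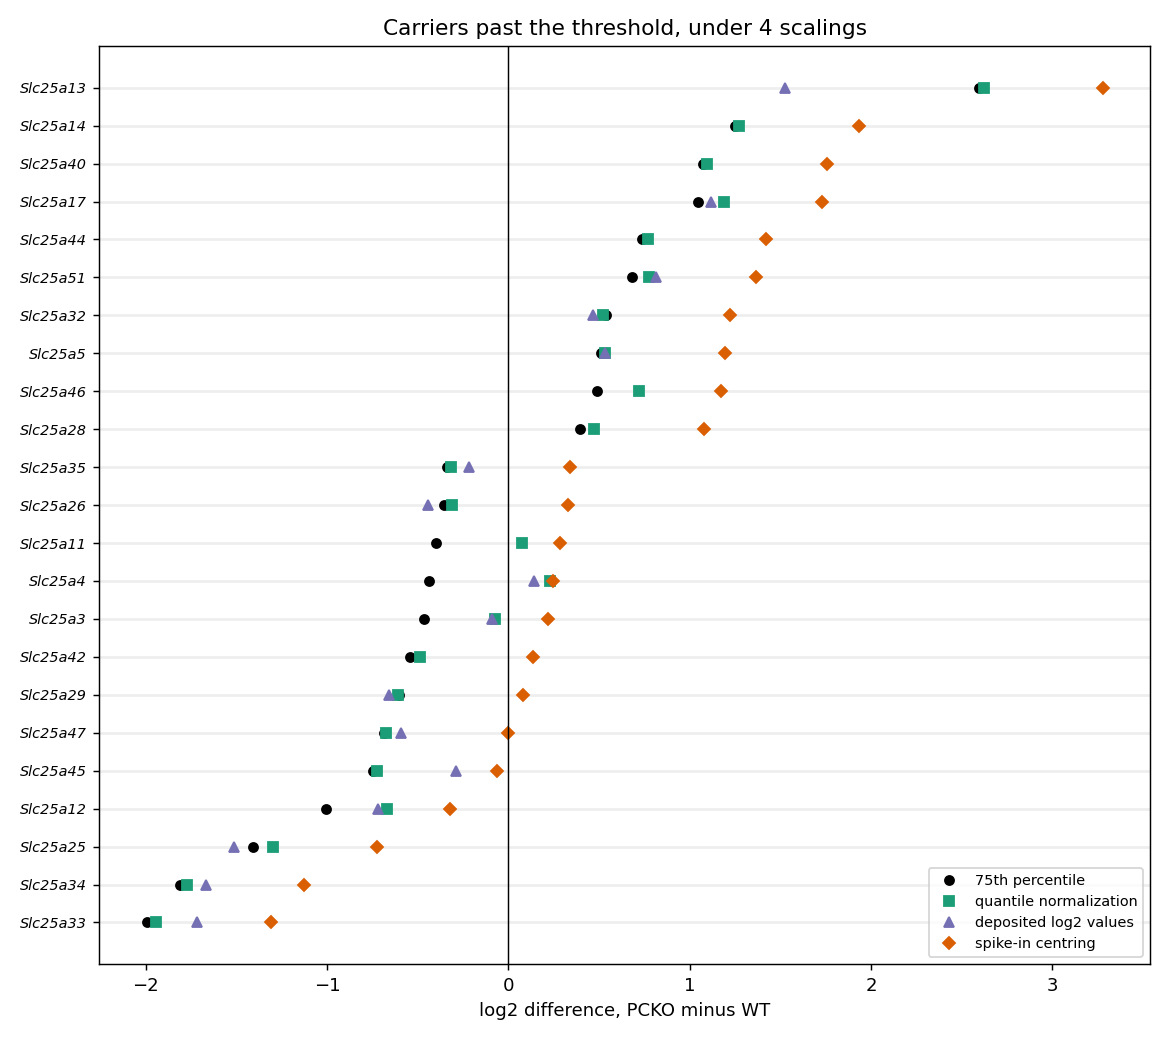
Log2 difference between PCKO and WT mice (horizontal axis) of the 23 carriers past the threshold under 4 scalings, with 1 symbol per scaling and no deposited value for carriers absent from that table. Spike-in centring moves every carrier by 0.68 to the right, so that Slc25a33 stays lower at -1.31 while Slc25a4 moves to 0.25 and Slc25a29 to 0.08.

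The scalings set side by side show which calls rest on the choice. Spike-in centring raises every difference, so the 10 carriers called higher could not turn under it. They also stayed above 0 under quantile normalization and, where listed, in the deposited values, Slc25a51 by its brighter probe. Some of the 10 have no deposited value. Of the 13 called lower, Slc25a29, Slc25a42, Slc25a3, Slc25a4, Slc25a11, Slc25a26 and Slc25a35 took the opposite sign under spike-in centring. Normexp correction ended the calls of Slc25a42, Slc25a3, Slc25a4, Slc25a11, Slc25a26 and Slc25a44. All 8 arrays lay on 1 slide in 2 rows, each with 2 arrays of each group. Within row 1 alone 8 carriers were called lower and 7 higher, and within row 2 alone 5 and 10. The share of all genes called within a row was not counted, so these counts are not read as particular to the carriers. All 23 called carriers kept their direction within each row. For the 21 whose groups did not overlap this was fixed in advance, so it is no separate check of those calls.

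Of 66 genes on lists of related mitochondrial transport, 63 were tested, 28 were called lower (44.4%) and 14 higher (22.2%). The median of the 63 was -0.12, which turned to 0.08 under quantile normalization and 0.56 under spike-in centring. Of all genes tested, 32.7% were called lower, 38.3% higher and 71.0% either. The count lower was 18 under quantile normalization and 4 under spike-in centring, and the count higher was 21 under quantile normalization and 29 under spike-in centring. Where a list below is given 0 lower calls by limma, it also had 0 at an unadjusted p under 0.05. In the group of creatine kinases and ATP synthase subunits, 6 of 6 fell (4 under quantile normalization, 2 under spike-in centring). Ckm, the cytosolic muscle creatine kinase, differed by -3.24 ± 0.18 (adjusted p = 1.0e-06) and Ckmt2, its mitochondrial partner, by -2.36 ± 0.13 (adjusted p = 7.9e-07). Of the outer membrane channels 3 of 3 were called lower, but 1 under quantile normalization and 0 under spike-in centring. Vdac3 differed by -0.96 ± 0.073 (-0.28 under spike-in centring, adjusted p = 0.43) and Vdac1 by -0.64 ± 0.11 (turning to 0.05 under spike-in centring), and the sign of Vdac2 turned there too (0.10). Of the malate-aspartate enzymes 3 of 4 were called lower, a count that rests on the scaling, since quantile normalization and spike-in centring each gave 0 lower and 1 higher. Mdh2, the mitochondrial malate dehydrogenase, was at -0.75 ± 0.11 (-0.09 with adjusted p = 0.23 under quantile normalization, -0.06 with adjusted p = 0.87 under spike-in centring) and Mdh1, the cytosolic form, at -0.61 ± 0.16 (0.08 under spike-in centring). The ornithine, branched-chain and glutamate enzymes gave 5 lower and 1 higher of 7 (4 and 1 under quantile normalization, 0 and 2 under spike-in centring). Bcat2, the muscle branched-chain aminotransferase, was at -0.89 ± 0.15 (-0.21 under spike-in centring, adjusted p = 0.56).

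Of the carrier family members under other names, 4 of 5 were tested. Ucp3, the muscle uncoupling protein, was -0.06, 0.14, 0.48 and -0.72 in PCKO mice, against 2.25, 2.52, 2.11 and 2.99 in WT mice. It fell by 2.50 ± 0.27 on the log2 scale (adjusted p = 5.3e-05), further than any Slc25a member tested, and the outer membrane protein Mtch1 rose by 0.32 ± 0.079 (adjusted p = 0.0061). Ucp2 (0.06) and Mtch2 (0.01) did not pass. Other inner membrane transporters gave 6 lower and 4 higher of 13 (5 and 4 under quantile normalization), a balance that spike-in centring reversed to 1 lower and 6 higher, with Tmem65 at -3.15 ± 0.14 and Abcb10, a transporter tied to haem synthesis, at 1.49 ± 0.095. The import machinery for carriers, the TIM22 and TOM complexes and their small chaperones, gave 1 lower and 5 higher of 15 (0 and 8 under quantile normalization, 0 and 12 under spike-in centring), with Agk at 0.67 ± 0.14 and Timm10 at 0.46 ± 0.092. The carnitine cycle gave 2 lower and 2 higher of 5, as under quantile normalization, but 0 lower and 2 higher under spike-in centring. Crat, carnitine acetyltransferase, was at -1.12 ± 0.12 (-0.44 under spike-in centring, adjusted p = 0.20) and Cpt1a, the liver-type outer membrane palmitoyltransferase, at 0.88 ± 0.12. The calcium uniporter complex gave 1 lower and 1 higher of 6, but 1 and 3 under quantile normalization and 0 and 3 under spike-in centring. Mcur1 was at -0.89 ± 0.090 (-0.21 under spike-in centring, adjusted p = 0.56) and Micu2, a gatekeeper subunit, at 0.73 ± 0.086.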

How the data were processed

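RNA of 4 PCKO and 4 WT muscles was hybridised to 1-colour Agilent mouse arrays, 1 array per mouse, per the labels. The scanner files hold spot intensity values from Feature Extraction 10.7.3.1, background-subtracted and not normalized between arrays, per the file headers. How the log2 values of the deposited series table were made is not stated in the labels. The table lists 32622 of the 55681 non-control probes. Over 5777 bright probes each column correlated with the log2 signal of its own array at 0.9997 or more and with another's at 0.994 or less, so scale and direction are known and the centring is not. Column medians were 5.45 to 5.52. It served as an alternative. In all 43.5 to 46.1% of probes were well above background, and 0 spots were saturated. The number of arrays limits the precision.

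From these, processed signals were put on the log2 scale and the 75th percentile of each array's non-control probes was subtracted, leaving out control spots and spots marked non-uniform or population outliers. Accessions were matched to RefSeq symbols (GRCm38.p6). Of the probes 26582 had 1 symbol and 29099 none. The brightest probe stood for a gene, and probes well above background on at least 4 of 8 arrays were tested by limma 3.58.1 under R 4.3.3. The two-sided moderated fit had no term but the group, and p-values were adjusted by Benjamini-Hochberg over 12739 genes. Members and lists were chosen with earlier results of these data known. Full values were given for called members without overlap and for both genes of each pair, and in each related list the 2 largest called changes without overlap were named. Some items that this rule takes are not reported here. Ucp2 and Mtch2 were added after their values were seen. Of 12 pairs set, 8 had both genes tested. On simulated data over 12739 genes for this comparison, the fit found 41.8%, 80.6% and 95.5% of changes of 0.5, 1 and 2 log2 units, with 7 false calls among 152. These changes were set in 67, 67 and 66 genes, a far smaller share than the 71.0% called in the data. The rates therefore need not hold for the data. Normexp correction used an offset of 50 on median signals. Probes of related carriers that share sequence were not separated.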

Additional observations from a re-analysis of the deposited data

Results flagged for a closer look

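In 2 of 72 groups of values examined, 1 mouse stood apart from the other 3 of its group by Dixon's ratio, and chance gives about 1 in 20 groups. For Slc25a12, WT replicate 3 was the lowest of its group at 6.73, with the next at 6.85 (ratio 0.832, just past the 95% critical value). For Slc25a35, PCKO replicate 1 was the highest of its group at -1.68, with the next at -1.94 (ratio 0.830). The causes were not tested.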

How the results depend on the processing

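The main limit is the scaling between arrays. Spike-in centring gave 3 carriers lower and 17 higher, a median of 0.66, 4 related genes lower and 29 higher, and -0.018 (adjusted p = 0.96) for Crebbp. It turned the sign of Slc25a11 (0.29), Slc25a20 (0.43), Slc25a26 (0.33), Slc25a29 (0.083), Slc25a3 (0.22), Slc25a30 (0.46), Slc25a35 (0.34), Slc25a36 (0.60), Slc25a38 (0.64), Slc25a4 (0.25), Slc25a42 (0.14), Vdac1 (0.046) and Mdh1 (0.076). Quantile normalization gave 10 carriers lower and 12 higher, left 18 related genes lower and turned Slc25a11 (0.075), Slc25a16 (-0.00076), Slc25a38 (0.015) and Slc25a4 (0.23). Normexp correction gave 8 carriers lower and 12 higher and -0.41 (adjusted p = 0.058) for Crebbp, and turned Slc25a36 (0.070), Slc25a38 (0.22) and Slc25a39 (-0.10). The deposited log2 values, which hold 23 of the tested carriers, gave 8 lower and 5 higher, 10 related genes lower, 3 of 4 pairs past the threshold, and turned Slc25a16 (-0.015), Slc25a27 (-0.016) and Slc25a4 (0.14). Fewer genes are listed there. Shares over all genes were not counted for normexp correction, the deposited values or the fits that follow. Their counts are therefore not read as particular to these genes. Slide row 1 alone gave 8 carriers lower, 6 related genes higher, Slc25a16 at -0.12 and Slc25a38 at 0.078, and row 2 alone 5 carriers lower, 8 related genes higher and Slc25a24 at -0.00014, with 4 arrays each. Keeping outlier spots gave -0.00043 for Slc25a16, and the mean of probes -0.049 for Slc25a51. Leaving out 1 replicate gave 12 to 13 carriers lower and 9 to 11 higher, and ranges of -0.035 to 0.052 for Slc25a16, -0.11 to 0.000027 for Slc25a38 and -0.25 to 0.16 for the ratio of Slc25a37 to Slc25a28. The labels share replicate numbers between groups, but same-numbered mice correlated only at 0.056, 0.124, 0.067 and 0.054, although each mouse correlated best with its own number. With the replicate block 14 carriers were lower, Slc25a20 being added (adjusted p = 0.048), and 10 higher. The other causes were not tested. Intensity trend, array weights, the slide row as a block and either detection filter moved no count of called carriers by over 1.5 times.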
